A study of Homo sapiens with 4 samples.

Results

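The genes examined were 29 genes of cholesterol and fatty acid synthesis, chosen by function. CH25H, which encodes an enzyme that hydroxylates cholesterol, was set beside 28 genes of the SREBP pathway, comprising 17 enzymes of sterol synthesis, 4 genes of sterol sensing and transport, and 7 enzymes of fatty acid synthesis. A probe was found for 28 of the 29 genes, and these genes had 40 of the 47321 probes on the array. The squalene synthase gene FDFT1 was not analysed here. Of the 28 genes, 27 had a detection p-value below 0.01 on 1 array or more, which is called detected here, and 26 reached this on all 4 arrays. STARD4, a cytosolic sterol carrier, was not detected on any array, and SREBF2 was not detected in untreated cells.

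The arrays profiled HuES6, an established human embryonic stem cell (hESC) line, on Illumina HumanHT-12 V4 bead arrays. All cells were kept with Activin A (5 ng/ml) and FGF2 (20 ng/ml), ligands that sustain the undifferentiated state. The groups were hESCs given BMP4 at 20 ng/ml, hESCs given the GSK3 inhibitor CHIR99021 at 5 µM as a mimic of canonical WNT signaling, hESCs given both, and untreated hESCs, with treatments lasting 4 h. There was 1 array in each group, so differences between groups carry no test, no error and no replicate check, and every value below describes these 4 samples of a single line.

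All values are normalized log2 intensities or differences between them. A difference is called at a size of 1 on this scale, which is a 2.00-fold change, and a smaller call is made at 0.5. A probe entered a comparison if either of its 2 arrays detected it. Between 15980 and 16762 probes were detected per array. Of 8 pluripotency genes, the 7 with a probe were detected on all 4 arrays, and their summed level, carried by the brightest probes, lay between 14.0 and 14.1 in each group. Single genes of that list differed, such as SOX2, by -0.91 with CHIR99021 and -0.62 with both, and L1TD1, by -0.41 to -0.47 across the treatments. The treatments left their marks on known target genes. The BMP target ID1 was higher by 2.93 with BMP4 and by 2.95 with both, and the WNT target AXIN2 was higher by 2.40 with CHIR99021 and by 2.30 with both, each relative to untreated hESCs.

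Cells control their sterol supply through the SREBP proteins, which are made as precursors in the endoplasmic reticulum. When sterols are scarce, the precursor is escorted to the Golgi and cut there, and the released part enters the nucleus and activates genes for the synthesis of cholesterol and of unsaturated fatty acids. INSIG proteins hold the precursor back when sterols are plentiful, and the oxysterol made by the CH25H enzyme binds INSIG and strengthens that retention. SREBP activity thus depends on processing of a protein, whereas the arrays measured only transcripts.

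SREBP binds a sterol regulatory element, commonly next to an NF-Y box. The 250 bases before each RefSeq start site (GRCh38.p14) were searched on both strands for TCACNCCAC, a form of the sterol regulatory element, and for CCAAT, the core of the NF-Y box. Promoters were found for CH25H and for 24 of the 28 SREBP pathway genes. The first motif occurred in 1 of these 24 genes, or 4.17%, against 1.09% of all genes in the table. The second occurred in 18 of them, against 37.0% of all genes. Counted by start site, the element was found in 1 of 33 promoters of these genes against 0.883% of all promoters, and the NF-Y core in 22 of 33 promoters, or 66.7%, against 32.0%. A match describes letters only, and a missing match says nothing about binding. The sequences below are those of CH25H, the gene with the widest change, of SREBF2, the only member with both motifs, and of the sterol synthesis gene NSDHL, whose promoter held 5 NF-Y cores. They are written in the direction of the gene, ending at the base before the start site, and capitals mark matches on either strand.
CH25H, chr10:89207318-89207567, minus strand: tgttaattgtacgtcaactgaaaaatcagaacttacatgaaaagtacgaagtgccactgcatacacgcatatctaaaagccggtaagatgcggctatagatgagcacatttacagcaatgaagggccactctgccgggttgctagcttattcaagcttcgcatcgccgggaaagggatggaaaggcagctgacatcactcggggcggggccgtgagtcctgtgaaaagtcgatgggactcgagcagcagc
SREBF2, chr22:41832855-41833104, plus strand: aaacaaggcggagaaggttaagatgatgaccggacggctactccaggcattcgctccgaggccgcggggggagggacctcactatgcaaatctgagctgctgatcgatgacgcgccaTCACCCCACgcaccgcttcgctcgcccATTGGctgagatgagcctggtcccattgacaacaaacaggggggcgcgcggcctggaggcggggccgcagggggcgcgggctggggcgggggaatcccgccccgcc
NSDHL, chrX:152830813-152831062, plus strand: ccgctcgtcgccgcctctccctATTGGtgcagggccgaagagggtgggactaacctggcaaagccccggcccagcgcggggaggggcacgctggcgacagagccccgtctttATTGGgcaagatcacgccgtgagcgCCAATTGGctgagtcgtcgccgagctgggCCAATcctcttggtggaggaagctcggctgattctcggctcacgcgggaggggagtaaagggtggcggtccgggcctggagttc
In SREBF2 the sterol element began at position -133 and the NF-Y core at position -106, where -1 is the last base before the start site. In NSDHL the cores began at -228, -138, -113, -110 and -84, and those at -113 and -110 share bases. The CH25H window held neither motif.

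CH25H was lower in all treated hESCs, most of all with both treatments. Its level was 6.83 with BMP4, 5.996 with CHIR99021 and 5.00 with both, against 7.49 in untreated hESCs. The corresponding raw intensities were 177, 135 and 97.9, against 265 in untreated cells. CH25H was detected on all 4 arrays, although with both treatments its detection p-value of 0.00909 was close to the limit. Cells with both treatments were thus lowest and untreated cells highest. Without replicates it cannot be said which neighbours in this order differ beyond their spread.

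Relative to untreated hESCs, CH25H differed by -0.66 with BMP4 (1.58-fold lower), which is below the call at 1. With CHIR99021 the difference was -1.497 (2.82-fold lower), and with both treatments it was -2.50 (5.64-fold lower). The size of the last value depends on the background step, and it was -1.70 with an offset of 50 and -1.18 without background correction. Among 10825 genes compared between both treatments and untreated cells, CH25H had the lowest difference of all. It ranked 5 from the bottom among 10747 genes for CHIR99021 and 148 from the bottom among 10864 genes for BMP4. For orientation, a difference of at least 1 in either direction was reached by 0.295% of genes with BMP4, 0.921% with CHIR99021 and 1.28% with both. The decrease of this gene was known from earlier results of these data when it was put on the list, so its ranks are a description.

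Each treatment was also compared in the presence of the other, using arrays that the comparison with untreated cells did not use for the same treatment. Adding BMP4 to CHIR99021 came with a CH25H difference of -0.9992 (2.00-fold lower), which just missed the call, while 0.416% of genes reached it. Adding CHIR99021 to BMP4 came with a difference of -1.84 (3.57-fold lower), and 0.811% of genes reached the call. Averaged over both backgrounds, the BMP4 effect was -0.83 and the CHIR99021 effect was -1.67. The level with both treatments lay 0.34 below the sum of the single effects (departure -0.34), where the median size over all genes was 0.24. That level is next to the dimmest detected probe of its array, at 4.98, and no group has a replicate. Whether the 2 decreases are additive on the log2 scale therefore cannot be judged. CH25H has 1 probe, which leaves no second probe to compare. The direction held in all 7 processing alternatives, although those that change the detection filter or average probes cannot alter a gene with 1 detected probe. Without background correction the differences shrank to -0.83 for CHIR99021 against untreated and to -0.77 for CHIR99021 added to BMP4, both short of the call.

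**Figure D1:**
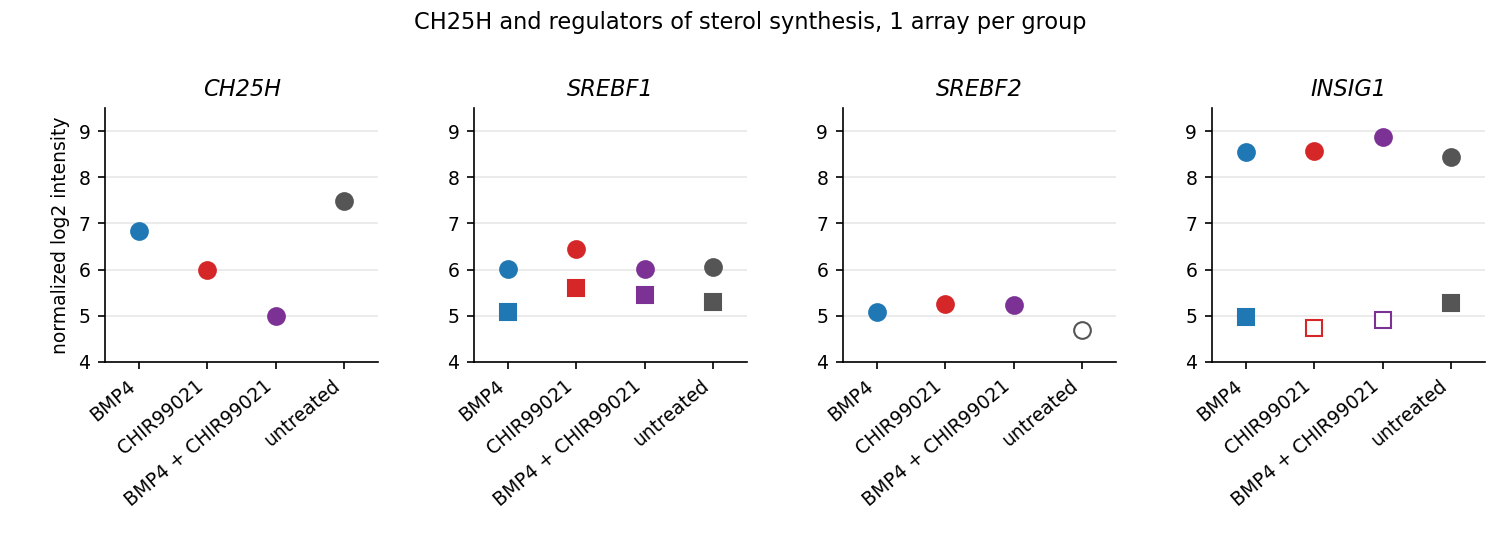
Normalized log2 intensity (vertical axis) of CH25H and of the regulators SREBF1, SREBF2 and INSIG1 in each group, 1 array per group. Circles are the main probe, squares another probe of the gene that at least 1 array detected, and open symbols are values without detection at p below 0.01. CH25H lay at 5.00 with both treatments against 7.49 in untreated hESCs, whereas the main probes of the regulators varied by at most 0.57.

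In a bulk culture, fewer cells that express a gene and less RNA per cell cannot be told apart. Genes often used as markers of fibroblasts, a cell type that differentiating hESC cultures can hold, were listed beside CH25H. Of 8 such genes, 5 were detected on at least 1 array, and LUM, DCN and POSTN were not detected on any. The summed level of the 8 genes was 11.53 with BMP4, 11.46 with CHIR99021 and 11.28 with both, against 11.75 in untreated hESCs. With both treatments, all 5 detected genes lay below untreated cells, by 0.59 for COL1A2 at most, where 48.6% of all genes lay above 0. COL3A1 was not detected with both treatments. It entered that comparison through untreated cells, where it is higher, so its direction there carries no information. The summed level had the same order as CH25H over a much smaller span. Of the 5 genes, THY1 alone had that order by itself, while COL1A1 was lowest with CHIR99021 (8.77, against 9.01 with both). THY1 was also the brightest gene of the list, at 10.72 in untreated cells, and so weighs most in the sum. Detection of these genes does not by itself show that fibroblasts were present. Their part in the decrease of CH25H was not tested.

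CH25H is also known as a gene induced by interferon and by inflammatory signals, and genes of both kinds were examined. Of 12 interferon response genes, 9 to 10 were detected in the comparisons with untreated cells, and their median difference was 0.06 with BMP4, -0.28 with CHIR99021 and 0.10 with both. None of them reached a difference of 1, and the nearest was IRF1, at -0.98 with CHIR99021, -0.08 with BMP4 and -0.30 with both. Of 11 NF-kB response genes, 5 to 8 were detected, with medians of 0.36, 0.21 and 0.10 in the same order. Within that list, the cytokine gene IL6 stood at 6.72 with BMP4, 5.92 with CHIR99021 and 5.42 with both, against 7.30 in untreated hESCs. Its order across the 4 arrays was the same as that of CH25H, and its differences from untreated were -0.58, -1.38 and -1.88. The chemokine gene CXCL1 stood at 6.16, 5.08 and 4.67 in the same treatments and at 5.75 in untreated cells, and at the main setting it was at least 1.71-fold lower with both treatments, where it was not detected. Its measured difference there, -1.08, was -0.56 with an offset of 50 and -0.33 without background correction. For IL6 the difference with both was -1.32 with an offset of 50 and -0.92 without background correction. Other genes of the list differed in direction. With both treatments, 3 of its 5 detected genes lay above untreated cells and 2 below, where 48.6% of all genes lay above 0. NFKBIA differed by 0.65 with BMP4, -0.33 with CHIR99021 and 0.31 with both. Against untreated cells, the medians of both lists thus did not follow CH25H, while the single gene IL6 had its order. The NF-kB medians rest on 7, 8 and 5 genes. With BMP4 added to CHIR99021, the NF-kB median was -0.38 (2 genes above 0, 6 below). With CHIR99021 added to BMP4 it was -0.36 (2 above, 5 below). Over all genes, 49.7% and 49.9% lay above 0. CXCL1 and CCL2 were not detected with both treatments and entered these counts through the other array. The interferon medians were 0.18 and -0.08. A link to CH25H was not tested.

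The SREBP pathway genes had median differences near 0, as had all genes. Among the 26 detected members other than CH25H, the median difference from untreated hESCs was -0.01 with BMP4, 0.01 with CHIR99021 and 0.02 with both. In each of these comparisons 13 members lay above 0 and 13 below. The medians over all genes were 0.00, -0.01 and -0.01. No member other than CH25H reached a difference of 1 in any of the 5 comparisons, a size that 0.295% to 1.28% of all genes reached, so that a count of 0 among 26 is near the background. The level of a member varied over the 4 arrays by a median of 0.39, with the smallest range for MVD (0.13) and the widest for EBP (0.74), and 17 of the 26 stayed within 0.5. Over all 11282 detected genes, the median range was 0.43 and 61.6% stayed within 0.5, while the range of CH25H was 2.50.

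A difference of 0.5 or more was rare among the members. With BMP4 it was reached by none of the 26, whereas 4.02% of all genes were higher and 4.14% lower by that much. With CHIR99021, the measured difference reached 0.5 for EBP and SREBF2 and no member was lower by that much, while 6.03% of all genes were higher and 8.11% lower. With both treatments, CYP51A1, ACACA and SREBF2 reached it and none was lower by that much, while 7.31% of genes were higher and 8.49% lower. The counts of 2 and 3 among 26 members are near these shares, and they include SREBF2, whose untreated value was not detected and whose difference is only bounded, as given with its levels.

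**Figure D2:**
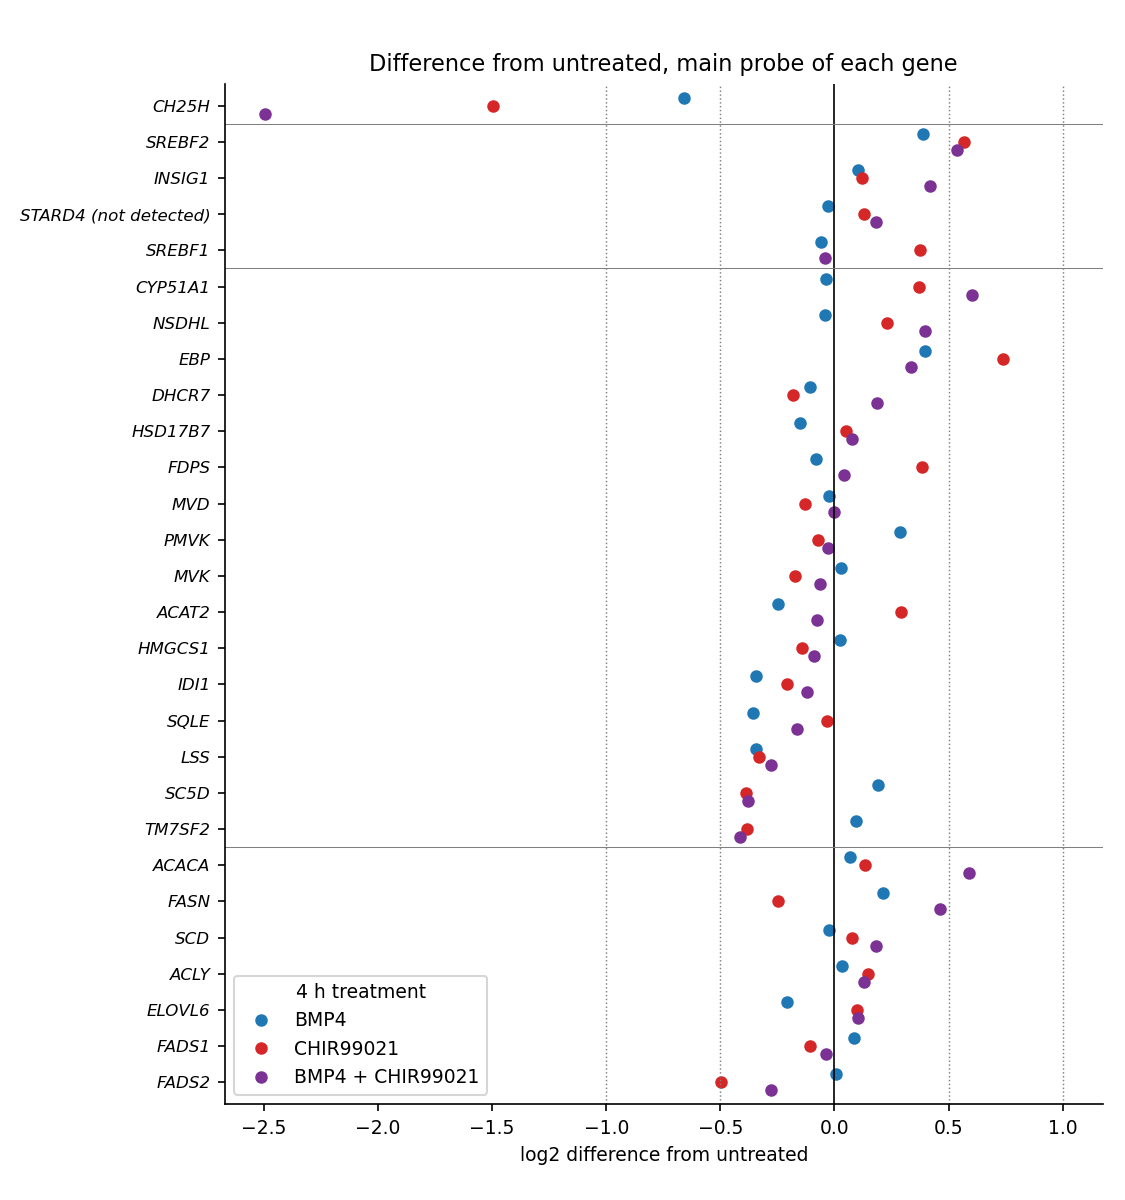
Difference in normalized log2 intensity from untreated hESCs (horizontal axis) for the main probe of each gene, by role from top to bottom as oxysterol synthesis, sterol sensing and transport, sterol synthesis, and fatty acid synthesis. Dotted lines mark 0.5 and 1. CH25H stands apart at -0.66, -1.497 and -2.50, and the other detected genes lie between -0.50 and 0.74.

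Of the sensing genes, 3 were detected, and their main probes had a median difference of 0.10 with BMP4, 0.37 with CHIR99021 and 0.42 with both. SREBF2 alone among them passed 0.5, against an untreated value that was not detected. SREBF2, which encodes the SREBP that chiefly drives cholesterol synthesis, stood at 5.08 with BMP4, 5.26 with CHIR99021 and 5.23 with both, against 4.69 in untreated hESCs. The untreated value was below the detection limit, so the dimmest detected probe was taken as the untreated level. At the main setting this gave lower bounds on the fold of 1.26 for CHIR99021, 1.23 for the combined treatment and 1.11 for BMP4. These bounds hold at that setting only. Without background correction, the measured SREBF2 differences were 0.16 for CHIR99021, 0.15 for the combined treatment and 0.11 for BMP4. With 1 array per group, an increase of SREBF2 was not tested. Raw intensities were 103 with BMP4, 108 with CHIR99021 and 103 with both, against 97.8 in untreated cells, so all 4 arrays were close to background and to one another.

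SREBF1, the SREBP with a larger part in fatty acid synthesis, stood at 6.002 with BMP4, 6.44 with CHIR99021 and 6.02 with both, against 6.06 in untreated cells. On this probe the CHIR99021 difference was 0.37 against untreated cells and 0.02 in the presence of BMP4. A second SREBF1 probe gave 5.08, 5.61 and 5.45 in these treatments and 5.29 in untreated cells, so that its CHIR99021 difference was 0.32 against untreated cells and 0.37 in the presence of BMP4. The probes thus differ on whether BMP4 changed the CHIR99021 difference. INSIG1, itself a target of SREBP and so a common readout of its activity, stood at 8.54 with BMP4, 8.56 with CHIR99021 and 8.86 with both, against 8.44 in untreated cells. With both treatments it was thus higher by 0.42. Its other probe was near the detection limit and went the opposite way, with differences of -0.31, -0.54 and -0.38, although it was not detected with CHIR99021 or with both. The direction of INSIG1 is therefore not settled by these arrays.

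Sterol synthesis genes had medians close to 0. The 16 detected enzymes had a median difference of -0.04 with BMP4, -0.10 with CHIR99021 and -0.05 with both. In the mevalonate steps, which lead to the isoprenoid building blocks, HMGCS1, MVK, MVD and PMVK differed from untreated cells by between -0.17 (MVK with CHIR99021) and 0.29 (PMVK with BMP4). IDI1, which makes the activated isoprenoid unit, was lower by 0.34 with BMP4, with smaller differences of -0.21 and -0.12 for CHIR99021 and for both. ACAT2, an acetoacetyl-CoA thiolase, showed -0.25 with BMP4 and 0.29 with CHIR99021. A second, dimmer ACAT2 probe read 0.50 with BMP4 and 0.54 with CHIR99021, against an untreated value that was not detected. It was detected only on the arrays with BMP4 alone and CHIR99021 alone, where it is higher, so its direction carries no information. FDPS, the farnesyl diphosphate synthase, showed 0.38 with CHIR99021 and 0.04 with both.

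In the steps from squalene onward, members moved in both directions. SQLE, which oxidizes squalene, differed by -0.36 with BMP4, the lowest value among the 26 members in that comparison, and by -0.16 with both. A second SQLE probe, dimmer but detected on all 4 arrays, gave -0.14 with BMP4, 0.24 with CHIR99021 and 0.11 with both. LSS, which closes the ring system to lanosterol, differed by -0.34, -0.33 and -0.28 with BMP4, CHIR99021 and both. A second LSS probe, dimmer but detected on all 4 arrays, gave -0.22, 0.00 and -0.04, and a further one was detected in untreated cells only. CYP51A1, the lanosterol demethylase, stood at 6.49 with BMP4, 6.89 with CHIR99021 and 7.12 with both, against 6.52 in untreated cells. It was the highest member with both treatments, at 0.60 above untreated. BMP4 alone left it where untreated cells had it, and both arrays with CHIR99021 were above both arrays without.

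EBP, a sterol isomerase late in the pathway, stood at 8.79 with BMP4, 9.14 with CHIR99021 and 8.73 with both, against 8.40 in untreated cells. It was 1.67-fold higher with CHIR99021 (difference 0.74), yet with both treatments the difference was 0.34. TM7SF2, a sterol reductase, stood at 9.19 with BMP4, 8.71 with CHIR99021 and 8.68 with both, against 9.10 in untreated cells. SC5D, a sterol desaturase, stood at 10.10, 9.52 and 9.53 in the same treatments, against 9.91 in untreated cells. For TM7SF2 and SC5D, both arrays with CHIR99021 lay below both arrays without it. NSDHL, which takes part in removal of sterol methyl groups, differed by 0.23 with CHIR99021 and 0.40 with both. DHCR7 and HSD17B7, also late enzymes, differed from untreated cells on their main probes by between -0.18 and 0.19. A second DHCR7 probe of similar brightness gave -0.35 with both treatments, where the main probe gave 0.19. HSD17B7 and FDPS have closely similar pseudogene copies, and whether their probes tell these apart was not examined.

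Fatty acid synthesis genes had medians of 0.04 with BMP4, 0.08 with CHIR99021 and 0.13 with both over all 7 members. FASN, which builds palmitate, stood at 12.22 with BMP4, 11.76 with CHIR99021 and 12.47 with both, against 12.01 in untreated cells. Both arrays with BMP4 were above both arrays without it, and adding BMP4 to CHIR99021 came with a 1.63-fold higher level (difference 0.71). ACACA, the carboxylase that supplies malonyl-CoA, stood at 8.96 with BMP4, 9.03 with CHIR99021 and 9.48 with both, against 8.89 in untreated cells, a difference of 0.59 with both. A second ACACA probe showed a smaller difference with both, since it gave 9.06, 8.70 and 9.16 in these treatments and 9.003 in untreated cells. FADS2, a desaturase of polyunsaturated fatty acids, stood at 7.49, 6.98 and 7.20 in these treatments and at 7.48 in untreated cells. Its difference of -0.50 for CHIR99021 fell just short of the smaller call at -0.4989. The stearoyl desaturase SCD, the citrate lyase ACLY, the elongase ELOVL6 and the desaturase FADS1 differed from untreated cells on their main probes by between -0.21 (ELOVL6 with BMP4) and 0.18 (SCD with both). Second probes, detected on all 4 arrays, differed more, with 0.52 for ELOVL6 with CHIR99021, and with 0.48 for ACLY with CHIR99021 and -0.26 for ACLY with both.

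The comparison of each treatment in the presence of the other gave a check on these small differences, since it used the other pair of arrays. When BMP4 was added to CHIR99021, the 26 members had a median difference of 0.05, with 18 above and 8 below 0, from -0.42 for SREBF1 to 0.71 for FASN. FASN was the sole member past 0.5, while 7.24% of all genes were higher and 5.32% lower by that much. When CHIR99021 was added to BMP4, the median was 0.14, again with 18 above and 8 below 0. Here CYP51A1 (0.64) and ACACA (0.52) were higher by at least 0.5, and SC5D (-0.57) and TM7SF2 (-0.51) were lower, while 5.20% of all genes were higher and 5.98% lower.

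The BMP4 difference had the same sign in both backgrounds for 13 of 26 members and for 57.8% of 10155 genes. The CHIR99021 difference had the same sign for 19 of 26, or 73.1%, and for 59.8% of 10197 genes. Of these 19, 12 were above 0 and 7 below. No member was past 0.5 in both backgrounds of either treatment. Averaged over both backgrounds, the CHIR99021 effect was highest for CYP51A1 (0.50), SREBF2 (0.36), EBP (0.34), NSDHL (0.33) and ACACA (0.33), and lowest for SC5D (-0.48), TM7SF2 (-0.45) and FADS2 (-0.39). The SREBF2 average uses an untreated value that was not detected, and the second ACACA probe gave -0.30 for CHIR99021 against untreated and 0.10 for CHIR99021 added to BMP4. The averaged BMP4 effect was highest for FASN (0.46) and lowest, among the genes other than CH25H, for ACAT2 (-0.31). Enzymes of neighbouring steps thus appeared on both sides, as with CYP51A1 and TM7SF2, which act one after the other on lanosterol and its product.

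**Figure D3:**
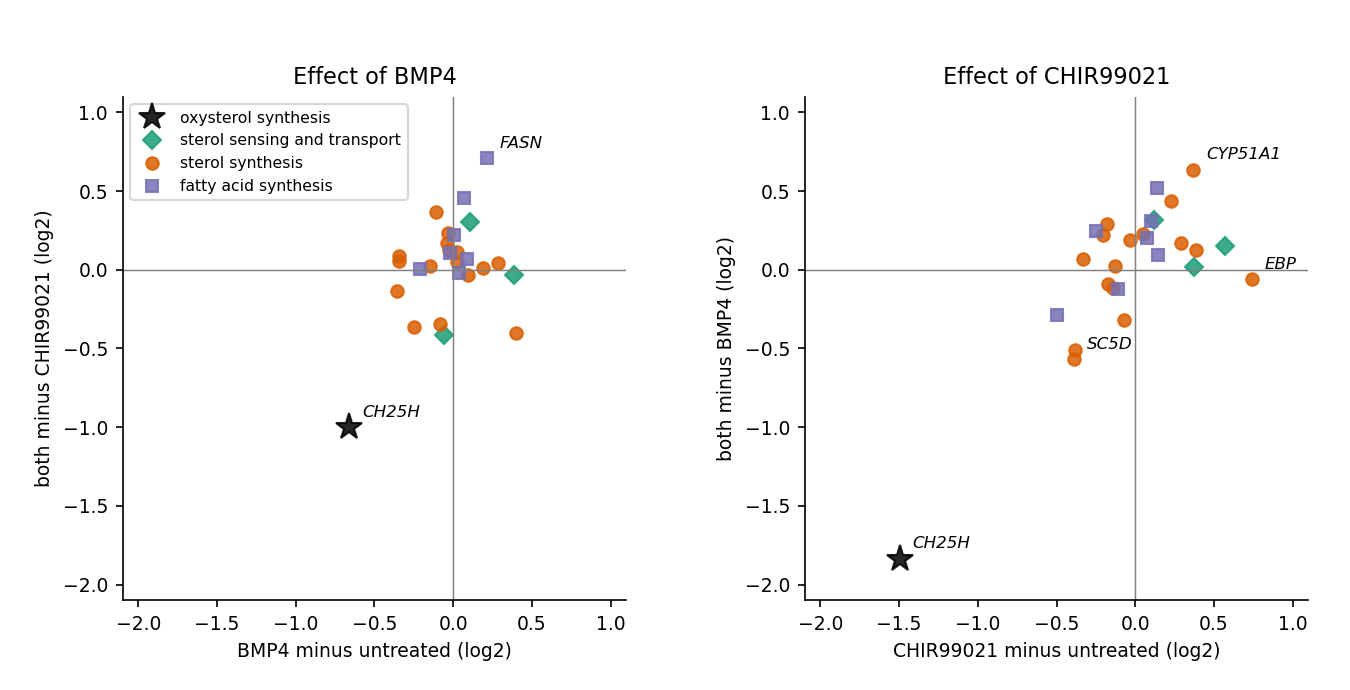
Log2 difference of each detected gene for BMP4 (left) and CHIR99021 (right), with the difference against untreated hESCs on the horizontal axis and the difference in the presence of the other treatment on the vertical axis. The axes of a panel share no array, and symbols give the role. CH25H lies low on both axes in each panel, and the other genes gather around 0.

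Departure from additivity, the difference between the level with both treatments and the sum of the single effects, was small for most members. Its median was 0.14 over the 26 members and 0.02 over all genes, and the median size was 0.21 for members and 0.24 for all genes. EBP had the lowest departure, at -0.80, since each treatment alone came with a higher level and their combination did not exceed either. FASN had the highest, at 0.4951. A departure of at least 0.5 in size was found for 1 of the 26 members and for 18.3% of all genes.

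Differences of this size were also seen between probes of a single gene. Members with more than 1 detected probe gave 10 pairs of a main and another probe. The sign of the difference from untreated was shared in 6 pairs with BMP4, 7 pairs with CHIR99021 and 4 pairs with both. Over 3422 pairs on the whole array, it was shared in 53.4%, 61.5% and 57.0% of pairs. The median gap between the probes of a member was 0.13, 0.30 and 0.33 in these comparisons, and the widest gap was that of INSIG1 with both treatments, at 0.80. The median size of a member's difference was 0.10, 0.19 and 0.17 in these comparisons, in each case below the median gap between probes of the same gene. Several of the other probes, such as those of INSIG1 and ACAT2, were much dimmer than the main probe. Pairs needed detection on only 1 array, both here and over the whole array. The INSIG1 probe was not detected with CHIR99021 or with both, and the ACAT2 probe was not detected in untreated cells. One LSS probe was detected in untreated cells only. The signs of these probes in such comparisons carry no information, and the widest gap, of INSIG1, is one of them. A gap holds the noise of both probes, so it is not an error of the main probe alone.

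**Figure D4:**
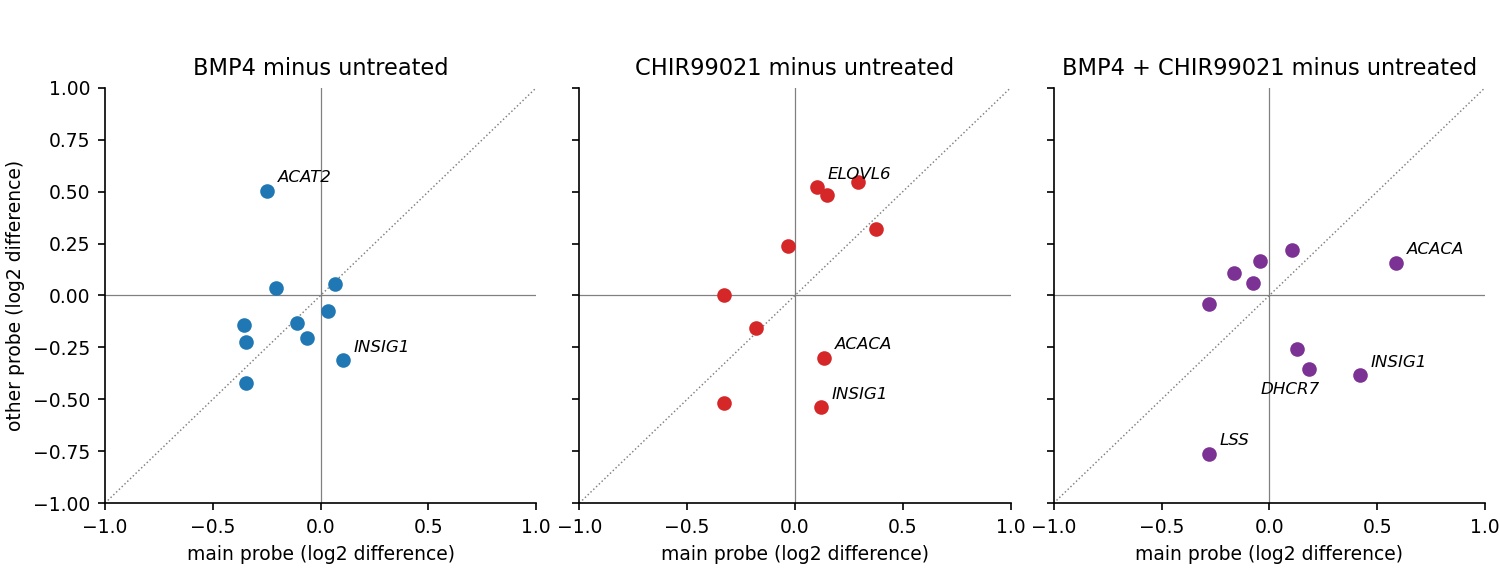
Log2 difference from untreated hESCs for the main probe (horizontal axis) and another probe detected on 1 array or more (vertical axis) of the same gene, 10 pairs in each panel, with the dotted line marking equal values. Genes whose probes differ by 0.4 or more are named. INSIG1 lies at 0.42 on one axis and -0.38 on the other with both treatments, where its other probe was not detected.

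Further genes of the pathway, taken from a list by function, showed the same small range. Of 24 listed genes, 18 were detected, with median differences of -0.12 with BMP4, 0.02 with CHIR99021 and -0.07 with both, and none reached 1. At 0.5, the list gave LPIN1 (-0.65), which encodes a phosphatidate phosphatase, and MBTPS2 (-0.51), which encodes a protease that cuts SREBP in the Golgi, both lower with BMP4, that is 2 of 18 where 4.14% of all genes were lower. They fell short of 0.5 with an offset of 50, at -0.49 for LPIN1 and -0.30 for MBTPS2. HACD3 (0.60), an enzyme of fatty acid elongation, was higher when CHIR99021 was added to BMP4, that is 1 of 18 where 5.20% of all genes were higher. These 3 genes were named after their values were seen.

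Oxysterols also act as ligands of the nuclear receptor LXR, which turns on genes for sterol export. Of 11 such genes, 8 were detected, and their medians were 0.08 with BMP4, -0.08 with CHIR99021 and 0.11 with both. ABCA1, the cholesterol exporter and a classical LXR target, stood at 5.73 with BMP4, 5.42 with CHIR99021 and 4.61 with both, against 5.80 in untreated hESCs. With both treatments it was not detected, and at the main setting it was at least 1.77-fold lower there than in untreated cells and at least 1.68-fold lower than with BMP4 alone. These bounds hold at that setting only, since the measured difference from untreated cells, -1.19, was -0.62 with an offset of 50 and -0.37 without background correction. ABCA1 was thus lowest on the same array as CH25H. ABCG1, another exporter and LXR target, went the other way, at 5.81 with BMP4, 5.62 with CHIR99021 and 5.59 with both, against 5.28 in untreated cells, and it was named after its values were seen. Of 6 other enzymes that make or convert oxysterols and bile acids, 3 were detected in the comparisons with untreated cells. All 3 lay below untreated cells in each treatment, with medians of -0.34, -0.31 and -0.19, and none reached 0.5 in size. Over all genes, 49.5%, 48.4% and 48.6% lay above 0. CYP7B1, the lowest of the 3 with BMP4 and with both, was detected in untreated cells only. It entered the comparisons through the group where it is high, so its direction carries no information.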

How the data were processed

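The labels give the treatment of each of the 4 arrays. The authors deposited a linear intensity without normalization for each of 47321 probes, with a detection p-value from GenomeStudio in steps of 1 in 770. The software version and the handling of negative values are not stated in the sources used. A normalized intensity table, also deposited, with a median of 5.18 per array, served as an alternative.

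Raw intensities were corrected with normexp, using a background derived from the detection p-values, and raised by an offset of 16, which shrinks the differences of dim probes. They were then quantile-normalized over the 4 arrays and put on the log2 scale (limma 3.58.1, R 4.3.3). Probe symbols came from the platform annotation, updated by Entrez ID through RefSeq (GRCh38.p14), which matched 30073 of 30120 listed probes, and 17201 further probes are unnamed here. Each gene took its brightest probe on average. A fold against an array on which the probe was not detected is a bound, set at the higher of its own value and the dimmest detected probe of that array.

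Values on each array are given for CH25H, for the regulators, and for members past 0.5 in at least 1 of 5 comparisons, and genes of other lists by rule past 1. FADS2, just short of 0.5, single members given only by their differences, LPIN1, MBTPS2, HACD3, ABCG1 and marker genes under 1 were named after their values were seen. The same holds for NFKBIA and IRF1. Members and lists were chosen with earlier results of these data known. The code for the differences was run on simulated data with 200 changed genes and an assumed noise, without the background and normalization steps. That run tested the calculation only. It says nothing on how well the size rules suit these arrays, since no replicate gives their real spread. Precision is limited by the number of arrays. In all, 7 processing alternatives were computed.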

Additional observations from a re-analysis of the deposited data

How the results depend on the processing

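No paired analysis was possible because each group has 1 array, and for the same reason no replicate could be left out. The 7 alternatives were a normexp offset of 50, no background correction, median scaling in place of quantile normalization, the authors' normalized values, a detection limit of 0.05, no filter on dim probes, and the mean of a gene's detected probes. CH25H kept its sign under all 7. Its 1 probe was detected on all 4 arrays. The last alternatives, which change the detection limit, the filter or the averaging of probes, therefore returned its main values by construction. Counting these unchanged values, CH25H stayed on its side of the call at 1 in 31 of its values under the alternatives. Without background correction it fell short, at -0.83 for CHIR99021 against untreated and -0.77 for CHIR99021 added to BMP4. For BMP4 added to CHIR99021 it passed, at -1.07 with median scaling and -1.03 with the authors' values. The members' medians moved by less than 0.1 in 33 results, and median scaling gave -0.152 for BMP4 against untreated and -0.0729 for BMP4 added to CHIR99021, where the medians of all genes were -0.124 and -0.105. The counts past 0.5 are small and moved more. With median scaling the members lower by 0.5 numbered 1 for CHIR99021 and 1 for both treatments against untreated, 3 for BMP4 added to CHIR99021 and 1 for CHIR99021 added to BMP4, and those higher numbered 1 for both treatments against untreated. With an offset of 50, and likewise without background correction, 1 member was higher with CHIR99021 and 1 with both treatments, and 1 was lower and 0 higher when CHIR99021 was added to BMP4. With the mean of detected probes, 1 was higher in that last comparison. EBP with CHIR99021, FASN with BMP4 added to CHIR99021 and SC5D with CHIR99021 added to BMP4 stayed past 0.5 under all 7 alternatives, and CYP51A1, SREBF2, ACACA and TM7SF2 fell short of it under at least 1. Differences of dim probes shrink as the offset grows, and with an offset of 50 CH25H with both treatments against untreated was -1.70, where ABCA1 was -0.62, CXCL1 -0.56 and SREBF2 0.26.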
